A study of Mus musculus with 18 samples.

Results

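The 9 genes *Mat2a*, *Ahcy*, *Mtr*, *Cbs*, *Cth*, *Slc7a11*, *Gclc*, *Gclm* and *Chac1* act in the methionine cycle, transsulfuration, cystine import, and the synthesis and breakdown of glutathione. They were followed in bone marrow-derived macrophages (BMDM) whose choline metabolism had been blocked. The genes were chosen for these routes with earlier results of these data known. They were found by symbol, as the rows of the count table whose Ensembl identifiers carry these names in the annotation of the mouse genome GRCm38. All 9 were found among 55385 genes. Of these, 8 were tested, as part of the 14979 genes that reached 10 counts in 2 or more libraries, and *Cbs* was not.

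Cells came from the bone marrow of 12-week-old female C57BL/6J mice and were grown to day 7 with L-929 cell supernatant, which is a source of macrophage growth factor. They received vehicle (Veh, 0.1% DMSO), 250 µM hemicholinium-3 (HC3), which blocks choline uptake, or 5 µM RSM-932a (RSM), which inhibits choline kinase, for 24 h. Over the next 24 h they stayed naïve, written M[0], or received IL-4 at 20 ng/mL, written M[IL-4]. Each of the 6 groups has 3 libraries (18 in all), from 3 mice according to the labels, which do not tie a library to a mouse; p-values therefore measure the spread between these libraries. The labels name no engineered allele.

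In the methionine cycle, methionine is activated to S-adenosylmethionine, the methyl donor of the cell, which is spent to S-adenosylhomocysteine and split to homocysteine, and homocysteine is either methylated back to methionine or drained through transsulfuration into cysteine. The conversion of phosphatidylethanolamine to phosphatidylcholine by methylation uses this donor, and choline oxidation can feed the methyl pool in liver. Cysteine, made by transsulfuration or imported as cystine, is the limiting building block of glutathione, the main thiol antioxidant of the cell, and transcription of the import and synthesis genes is known to respond to the factors ATF4 and NRF2.

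RNA was selected with poly-T beads, and the deposited values are raw counts of read pairs per gene. Libraries held 17457796 to 19522255 counts, so that 3 counts in a library corresponded to 0.153 to 0.176 CPM (counts in 1000000 counts of a library, scaled by edgeR's TMM factors). Transcripts of the mitochondrial chromosome took 1.68% to 2.20% of the counts of a library with Veh, 2.50% to 3.45% with HC3 and 0.665% to 0.829% with RSM, without overlap in either polarization. Of 8 macrophage markers, none was at 0 in any group, and their summed level in M[0] was 20277 to 21364 CPM under Veh, 8707 to 9799 under HC3 and 15750 to 17196 under RSM. In M[IL-4] the sums were 11801 to 12146 with Veh, 7469 to 8657 with HC3 and 10601 to 12982 with RSM. *Lyz2* had the highest level of the 8 in M[0], with means of 11633 CPM with Veh, 5071 with HC3 and 11660 with RSM. Summed stromal markers (8 genes, 6 tested) ran higher with the inhibitors in M[0], at 527 to 888 CPM with Veh, 1233 to 1699 with HC3 and 1036 to 1487 with RSM. In M[0] means, *Col1a1* had 270.5 CPM with Veh, 611 with HC3 and 593 with RSM, while *Lum* and *Thy1* did not exceed 0.246 CPM in any group mean, and *Lum* was at 0 in all M[0] libraries. The M[0] means of *Col1a2*, *Col3a1* and *Pdgfrb* were also higher with both inhibitors. Those of *Dcn* (8.50 CPM with Veh, 7.91 with HC3 and 2.99 with RSM) and *Pdgfra* (22.1, 19.0 and 16.2 CPM) were lower. Of the 6 tested stromal markers, each inhibitor raised 2 in M[0] and 1 after IL-4, and RSM lowered 1 in each polarization. These sums were 285 to 665, 563 to 1061 and 541 to 1077 CPM in M[IL-4]. Neutrophil markers summed to at most 2.04 CPM, with *S100a9* and *Elane* at 0 in every library, and dendritic cell markers to at most 3.02 CPM. B cell markers summed to 21.3 to 27.8 CPM in Veh M[0], nearly all of it *Ighm*, and to at most 7.06 CPM elsewhere. Among IL-4 response markers, *Retnla* was at 0 in every M[0] library. Its means in M[IL-4] were 1273 CPM with Veh, 36.0 with HC3 and 26.1 with RSM. In the same order the M[IL-4] means were 181, 50.3 and 465 CPM for *Arg1*, 420, 546 and 1218 for *Chil3* and 1783, 1057 and 3090 for *Mrc1*. In these bulk samples, fewer cells of a type and less RNA per cell cannot be told apart.

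The promoters of 3 members whose transcripts rose with both inhibitors are shown, because they hold short letters associated with ATF4 or NRF2. Of the 9 members, 7 had a promoter in the RefSeq table used (GRCm38.p6), and the bases before the transcribed part are printed from 5′ to 3′ on the strand of the gene. Capitals mark TGATGNAA, the letters of the composite element of ATF4 and C/EBP, in *Slc7a11* (chr3:50443615-50443863, minus strand) and *Chac1* (chr2:119350992-119351228, plus strand), and TGACNNNGC, the core of the antioxidant response element, in *Gclm* (chr3:122245307-122245556, plus strand). Both strands were searched, so that capitals reading the other way are the reverse complement.
Slc7a11: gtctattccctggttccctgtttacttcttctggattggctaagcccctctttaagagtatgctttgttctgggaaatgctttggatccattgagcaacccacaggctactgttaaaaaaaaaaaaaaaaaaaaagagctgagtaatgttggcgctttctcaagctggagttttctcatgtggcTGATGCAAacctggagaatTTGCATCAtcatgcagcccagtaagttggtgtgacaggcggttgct
Chac1: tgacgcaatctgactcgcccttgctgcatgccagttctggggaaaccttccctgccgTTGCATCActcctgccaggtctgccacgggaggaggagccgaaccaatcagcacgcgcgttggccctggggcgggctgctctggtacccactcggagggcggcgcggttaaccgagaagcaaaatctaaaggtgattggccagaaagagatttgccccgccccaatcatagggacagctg
Gclm: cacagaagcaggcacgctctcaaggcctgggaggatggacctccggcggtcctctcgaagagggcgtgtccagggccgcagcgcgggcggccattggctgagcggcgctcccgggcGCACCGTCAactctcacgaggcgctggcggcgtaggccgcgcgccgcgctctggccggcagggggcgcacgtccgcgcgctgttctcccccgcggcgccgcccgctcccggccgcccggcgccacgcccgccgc
*Slc7a11* had 2 matches, 66 bases upstream of the RefSeq start on the strand of the gene (50443672 to 50443679) and 47 bases upstream on the opposite strand (50443653 to 50443660). *Chac1* had 1 on the opposite strand (119351049 to 119351056), and *Gclm* had 1 on the opposite strand (122245423 to 122245431). TGATGNAA occurred in 3.97% and TGACNNNGC in 12.4% of 32851 mouse promoters of 300 bases (250 before and 50 after the start), so the second in particular is common. The searched windows of *Mat2a*, *Ahcy*, *Mtr* and *Cbs* held neither run of letters. *Cth*, which also rose, and *Gclc* had no promoter in the RefSeq table and were not searched. A match describes the sequence and does not show that a factor binds there.

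Expression differed widely between members. Counts per length (RPKM, using the merged exons of each gene) averaged 39.1 in Veh M[0] for *Mat2a*, 20.5 for *Gclm*, 17.1 for *Gclc*, 12.3 for *Ahcy* and 7.24 for *Mtr*, which were thus all well expressed in resting cells. *Chac1* had 0.522 RPKM, *Slc7a11* 0.343 and *Cth* 0.0726, and *Cbs* was barely detected. The 3 genes that were low with vehicle, apart from *Cbs*, spanned the widest range over the 6 group means in CPM, 29.7-fold for *Cth*, 37.1-fold for *Slc7a11* and 22.8-fold for *Chac1*, against 1.32-fold for *Mat2a* and 4.76-fold for *Gclm*. The plot of all 9 genes shows every library.

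**Figure D1:**
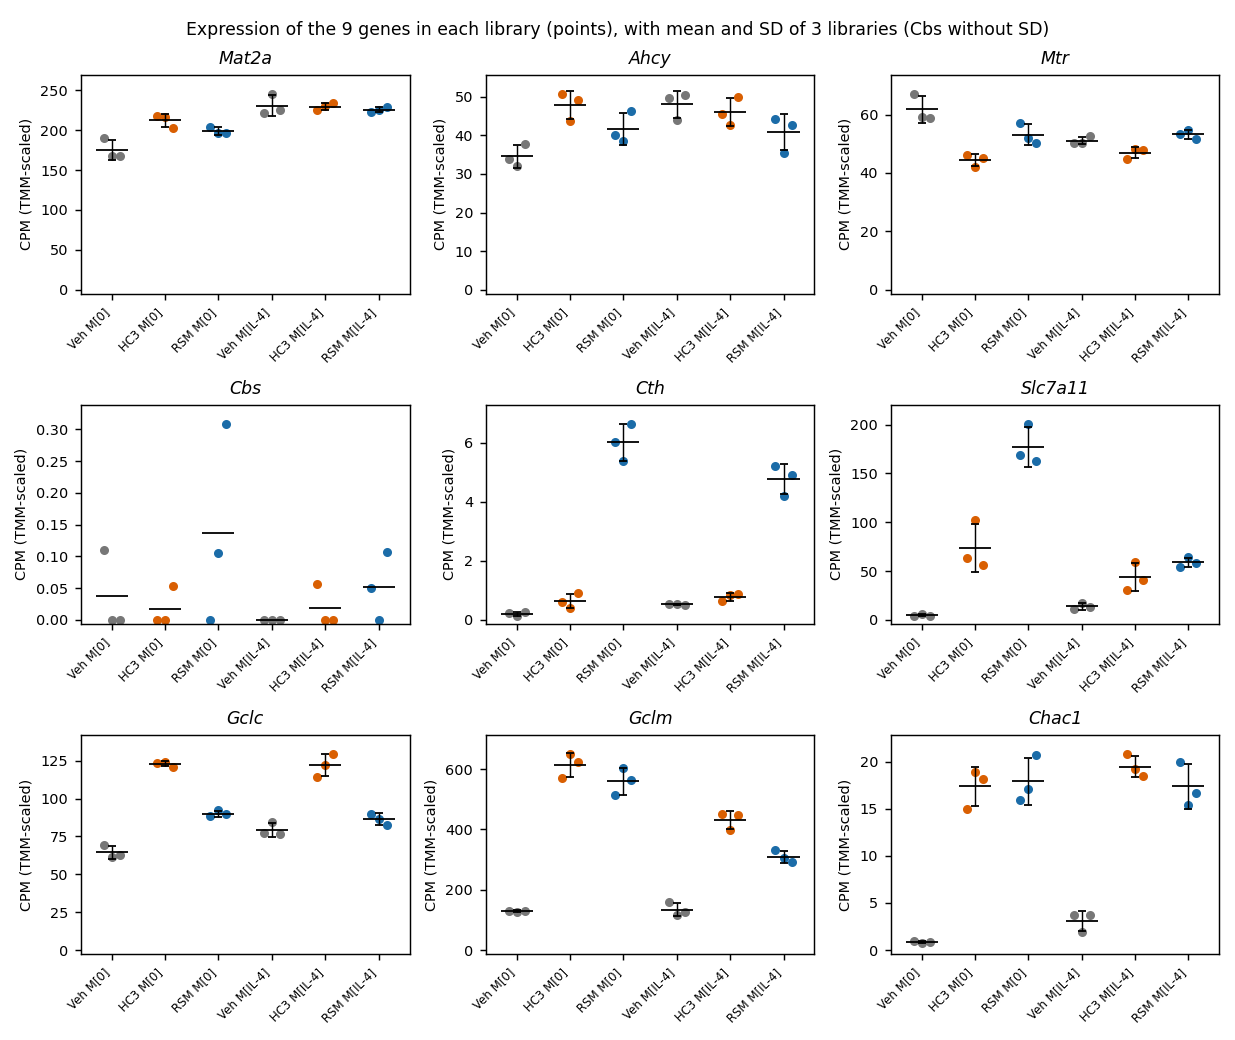
Expression of each gene in every library (points, CPM scaled by TMM, linear axes from 0) in the 6 groups, with the group mean (line) and SD (bar, n = 3 libraries; none for *Cbs*, at 0 to 6 counts). *Slc7a11*, *Gclm* and *Chac1* were higher in every library with an inhibitor than in every vehicle library of the same polarization, and *Cth* was high with RSM in both polarizations.

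The genes of the methionine cycle itself moved little, and none of the 3 was called (adjusted p under 0.05 together with an absolute log2 difference of 1 or more) in any of the 4 comparisons of an inhibitor with vehicle. *Mat2a* (ENSMUSG00000053907, chromosome 6, 72432799 to 72439558, minus strand) encodes the catalytic subunit of the methionine adenosyltransferase used outside liver. It had 190, 168 and 168 CPM in the Veh M[0] libraries, 218, 217 and 203 with HC3, and 204, 196 and 196 with RSM. Both inhibitor groups lay above Veh without overlap, by log2 0.28 ± 0.06 (SE, adjusted p = 0.00076) for HC3 and 0.18 ± 0.06 (adjusted p = 0.018) for RSM, under the fold threshold. In M[IL-4] all 9 libraries lay between 222 and 245 CPM, the groups overlapped, and the log2 differences were -0.01 ± 0.06 for HC3 and -0.03 ± 0.06 for RSM. Since the strand setting of the counting is not given in the sources used here, reads from the 11.3% of its exons that overlap *Particl* on the opposite strand cannot be told apart.

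*Ahcy* (ENSMUSG00000027597, chromosome 2, 155059310 to 155074497, minus strand) encodes the hydrolase that removes S-adenosylhomocysteine. Veh M[0] libraries had 33.8, 32.1 and 37.9 CPM, HC3 libraries 50.7, 43.8 and 49.1, and RSM libraries 40.2, 38.4 and 46.3. Neither inhibitor group overlapped with Veh, and the log2 differences of 0.47 ± 0.10 (adjusted p = 0.00079) and 0.27 ± 0.10 (adjusted p = 0.038) stayed under the fold threshold. In M[IL-4] the values were 49.6, 44.1 and 50.5 CPM with Veh, 45.5, 42.8 and 49.9 with HC3 and 44.4, 35.5 and 42.8 with RSM, and the groups overlapped. The log2 difference of RSM from Veh there was -0.23 (adjusted p = 0.071), and all 3 same-numbered pairs were lower with RSM. With a replicate block the adjusted p was 0.0071, and 0.0030 with the block within each polarization, still under the fold threshold. Its level is uncertain, because 81.9% of its transcript is near-identical (at least 98% over at least 100 bp) to *Gm4737* or *Gm9826*.

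*Mtr* (ENSMUSG00000021311, chromosome 13, 12182712 to 12258113, minus strand) encodes methionine synthase, which methylates homocysteine back to methionine. It was the member with the lowest log2 difference with HC3 in M[0], at 67.0, 59.3 and 58.9 CPM in Veh against 46.2, 42.0 and 45.1 with HC3 and 57.1, 52.0 and 50.3 with RSM. Each inhibitor group lay below Veh, by -0.47 ± 0.07 (adjusted p = 1.33e-05) and -0.22 ± 0.07 (adjusted p = 0.014), without passing the fold threshold. In M[IL-4] the group means were 51.1 ± 1.26 with Veh, 47.0 ± 1.89 with HC3 and 53.2 ± 1.48 CPM with RSM (SD, n = 3), with adjusted p of 0.18 and 0.52.

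Of the enzymes of transsulfuration, the first was near the limit of detection and the second rose with RSM in both polarizations. *Cbs* (ENSMUSG00000024039, chromosome 17, 31608894 to 31637238, minus strand) encodes cystathionine beta-synthase, which commits homocysteine to the pathway. It had 0 to 6 counts in a library, summing over the 3 libraries of a group to 2, 1 and 8 in M[0] (Veh, HC3 and RSM) and to 0, 1 and 3 in M[IL-4]. At this depth no difference was detectable. The 0 counts in Veh M[IL-4] allow up to 3 counts over the group, counting error only.

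*Cth* (ENSMUSG00000028179, chromosome 3, 157894248 to 157925077, minus strand) encodes cystathionine gamma-lyase, which releases cysteine, and it separated the inhibitors. Veh M[0] libraries held 4, 2 and 5 counts (0.221, 0.117 and 0.269 CPM), HC3 libraries 11, 8 and 17 (0.589, 0.410 and 0.894 CPM) and RSM libraries 113, 103 and 129 (6.03, 5.39 and 6.62 CPM). Every RSM library was far above every HC3 library, and every HC3 library above every Veh library. *Cth* rose by log2 4.83 ± 0.30 with RSM (28.5-fold, adjusted p = 2.44e-10) and by 1.59 ± 0.38 with HC3 (3.01-fold, adjusted p = 0.0022), the second on 8 to 17 counts in a library. In M[IL-4], Veh libraries had 10, 9 and 9 counts (0.538, 0.523 and 0.504 CPM), HC3 libraries 11, 15 and 16 (0.623, 0.830 and 0.876 CPM) and RSM libraries 102, 78 and 92 (5.20, 4.20 and 4.90 CPM). There it rose with RSM by 3.17 ± 0.26 (9.03-fold, adjusted p = 1.27e-08), whereas the log2 difference of 0.57 ± 0.31 with HC3 did not pass (adjusted p = 0.19), although all 3 HC3 libraries were above all Veh libraries.

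*Slc7a11* (ENSMUSG00000027737, chromosome 3, 49892526 to 50443614, minus strand) encodes xCT, the cystine-importing subunit of the cystine/glutamate exchanger. Its level was 4.42, 5.87 and 4.03 CPM in Veh M[0], 63.5, 102 and 56.1 with HC3 and 169, 200 and 163 with RSM. The 3 groups were fully separated, with RSM highest. *Slc7a11* rose by log2 3.95 ± 0.27 with HC3 (15.5-fold, adjusted p = 8.07e-10) and by 5.22 ± 0.27 with RSM (37.2-fold, adjusted p = 2.31e-11). In M[IL-4] the libraries had 11.04, 17.2 and 13.0 CPM with Veh, 30.7, 59.0 and 41.0 with HC3 and 54.2, 63.9 and 58.4 with RSM. Both inhibitor groups were above Veh there and overlapped each other, and the rises were 1.66 ± 0.24 (3.17-fold, adjusted p = 1.51e-05) and 2.10 ± 0.24 (4.28-fold, adjusted p = 7.82e-07). In each of the 6 groups the library of replicate 2 was the highest.

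Of the subunits of glutamate-cysteine ligase, which makes the first and rate-limiting step of glutathione synthesis, the modifier rose and the catalytic subunit stayed under the fold threshold. *Gclm* (ENSMUSG00000028124, chromosome 3, 122245557 to 122270732, plus strand), the modifier, had 131, 126 and 129 CPM in Veh M[0], 571, 648 and 623 with HC3 and 513, 603 and 563 with RSM. It was the most abundant member in CPM with either inhibitor, and no library with an inhibitor came near Veh. *Gclm* rose by log2 2.25 ± 0.10 with HC3 (4.76-fold, adjusted p = 1.78e-12) and by 2.12 ± 0.10 with RSM (4.35-fold, adjusted p = 5.52e-12). In M[IL-4] it had 159, 117 and 125 CPM with Veh, 449, 398 and 446 with HC3 and 332, 304 and 291 with RSM, so that all 3 groups were separate. The rises were 1.69 ± 0.10 (3.22-fold, adjusted p = 1.14e-10) and 1.21 ± 0.10 (2.31-fold, adjusted p = 8.06e-09). Exons of *Gclm* overlap *Gm17494* on the opposite strand over 4.71% and *Gm6061* on the same strand over 3.88% of their length.

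*Gclc* (ENSMUSG00000032350, chromosome 9, 77754535 to 77794485, plus strand), the catalytic subunit, had 69.6, 61.3 and 62.9 CPM in Veh M[0], 124, 124 and 121 with HC3 and 88.3, 92.4 and 89.6 with RSM. The groups were separate, and the log2 differences from Veh were 0.93 ± 0.06 for HC3 (adjusted p = 8.50e-10), just under the fold threshold, and 0.48 ± 0.06 for RSM (adjusted p = 5.60e-06). In M[IL-4] it had 77.3, 84.6 and 76.3 CPM with Veh, 115, 122 and 129 with HC3 and 90.2, 86.6 and 82.7 with RSM. HC3 libraries were above the rest (log2 0.62 ± 0.06, adjusted p = 2.40e-07), while RSM and Veh overlapped (0.12 ± 0.06, adjusted p = 0.13).

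The ratio of *Gclm* to *Gclc*, taken per length in each library, in M[0] averaged 1.198 ± 0.06 under Veh, 2.99 ± 0.19 under HC3 and 3.72 ± 0.22 under RSM (SD, n = 3). After IL-4 these averages were 1.01 ± 0.20 under Veh, 2.12 ± 0.21 under HC3 and 2.14 ± 0.06 under RSM. Every library with an inhibitor had a ratio of at least 1.95, and every vehicle library a ratio of at most 1.23, whichever the polarization. In each of the 4 comparisons with vehicle the 2-sided exact permutation test gave p = 0.1, the smallest value that 3 libraries against 3 allow, and the ratios of group means on the log scale were 2.49-fold (HC3) and 3.10-fold (RSM) in M[0] and, after IL-4, 2.11-fold (HC3) and 2.13-fold (RSM).

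**Figure D2:**
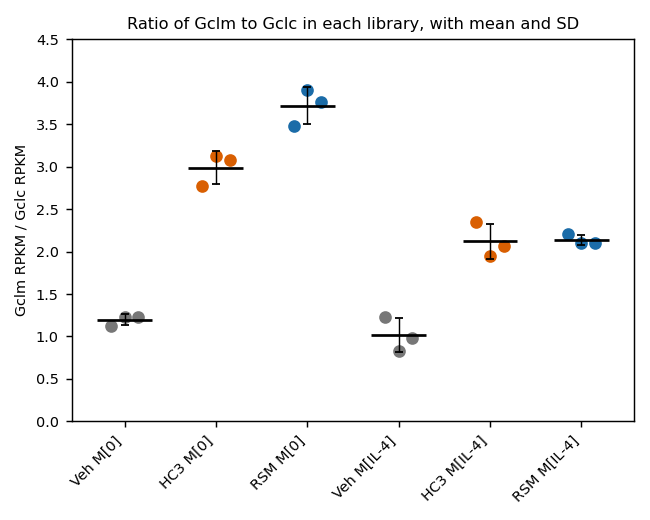
Ratio of *Gclm* to *Gclc* in each library (points, RPKM over RPKM, linear axis from 0) in the 6 groups, with mean (line) and SD (bar, n = 3 libraries). Vehicle libraries sit between 0.830 and 1.23 and libraries with an inhibitor between 1.95 and 3.91.

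*Chac1* (ENSMUSG00000027313, chromosome 2, 119351229 to 119354381, plus strand) encodes a gamma-glutamylcyclotransferase that breaks down glutathione. It was low in Veh M[0], at 0.995, 0.764 and 0.807 CPM (13 to 18 counts), and had 15.0, 18.9 and 18.2 CPM with HC3 and 16.0, 17.1 and 20.7 with RSM. The inhibitor groups overlapped each other and lay far above Veh, with rises of 20.2-fold (adjusted p = 1.93e-11) and 20.8-fold (adjusted p = 2.10e-11). In M[IL-4], Veh libraries had 3.71, 1.92 and 3.70 CPM, HC3 libraries 20.8, 19.2 and 18.5 and RSM libraries 20.0, 15.4 and 16.7. The inhibitor groups reached about the levels of M[0] from a higher vehicle level, and the rises were 6.23-fold (adjusted p = 2.05e-09) and 5.56-fold (adjusted p = 4.15e-09).

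Counted together, HC3 raised 4 of the 8 tested members in M[0] (*Cth*, *Slc7a11*, *Gclm* and *Chac1*) and lowered none, where 12.0% of all tested genes were called and 5.93% were called higher. RSM raised the same 4 in M[0], where 11.6% of all tested genes were called and 5.05% higher. In M[IL-4], HC3 raised 3 of 8 (*Slc7a11*, *Gclm* and *Chac1*; 10.3% of all genes called, 4.72% higher), and RSM raised all 4 (11% called, 5.05% higher). The median log2 difference of the 8 members was 1.26 (HC3) and 1.30 (RSM) in M[0] and, after IL-4, 0.59 (HC3) and 0.66 (RSM), beside medians of 0.02, 0.01, 0.01 and 0.02 over all tested genes. The comparisons of HC3 and RSM share the vehicle libraries of their polarization. The mitochondrial share was higher with HC3 and lower with RSM in both polarizations. Summed macrophage markers were lower and summed stromal markers higher with both inhibitors in M[0], although *Dcn* and *Pdgfra* had lower means there. In M[0], 6 of 8 macrophage markers were called lower with HC3 and 3 with RSM (2 and 0 in M[IL-4]). The part of these shifts in the results was not tested. The number of members called in these 4 comparisons was the same under every alternative tried.

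**Figure D3:**
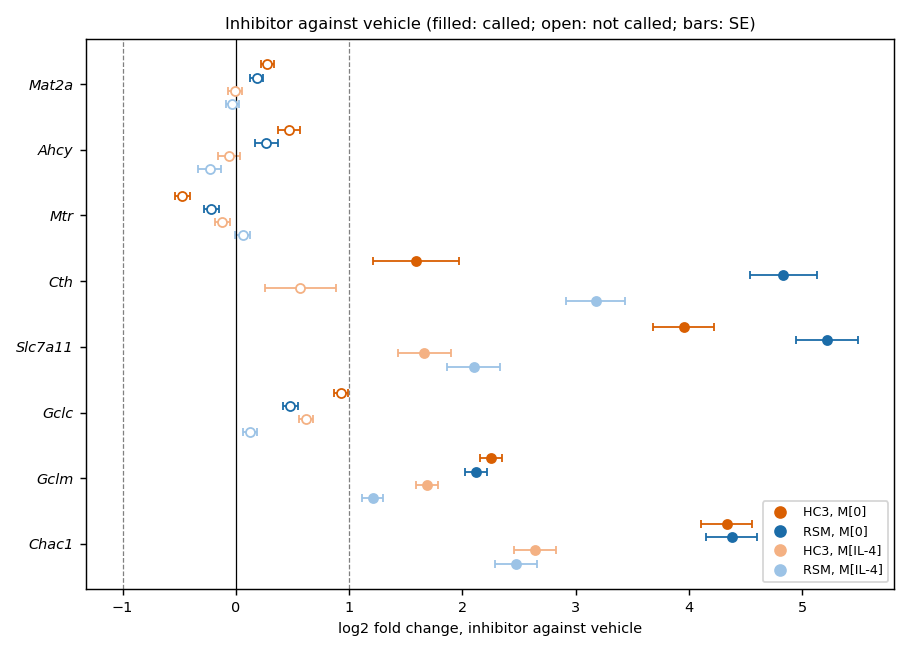
Log2 fold change of each tested gene for HC3 and RSM against vehicle in M[0] and M[IL-4] (points, filled where called), with SE (bars) and the fold threshold (dashed lines). *Mat2a*, *Ahcy*, *Mtr* and *Gclc* stay within the threshold in all 4 comparisons, and the rises of *Slc7a11* and *Chac1* are smaller in M[IL-4] than in M[0].

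IL-4 alone raised some of the same genes. In vehicle-treated cells, 3 of 8 members were called higher in M[IL-4] than in M[0], where 6.66% of all genes were called and 2.83% were called higher. *Chac1* rose 3.62-fold (log2 1.86 ± 0.26, adjusted p = 2.47e-05), *Slc7a11* 2.89-fold (1.53 ± 0.29, adjusted p = 0.00046) and *Cth* 2.50-fold (1.32 ± 0.40, adjusted p = 0.022). In all 3 the M[0] and M[IL-4] libraries were separate. The call for *Cth* rests on 2 to 10 counts in a library and was lost without the count filter (adjusted p = 0.058), without Veh M[0] replicate 2 (adjusted p = 0.11), without Veh M[IL-4] replicate 1 (adjusted p = 0.054), and without any replicate number in all groups (adjusted p = 0.11, 0.14 and 0.055). *Mat2a* (log2 0.40 ± 0.06, adjusted p = 3.71e-05), *Ahcy* (0.47 ± 0.10, adjusted p = 0.0012) and *Gclc* (0.30 ± 0.06, adjusted p = 0.0014) were higher in M[IL-4] and *Mtr* lower (-0.27 ± 0.07, adjusted p = 0.0042), all under the fold threshold. *Gclm* showed no difference past its error, at 128.9 ± 2.41 CPM in M[0] and 133.9 ± 22.0 CPM in M[IL-4] (SD, n = 3; adjusted p = 0.70).

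The same contrast was made within each inhibitor. With HC3, 0 of 8 members were called between M[IL-4] and M[0] (3.97% of all genes), and 2 had an unadjusted p under 0.05 in edgeR, *Slc7a11* (log2 -0.76 ± 0.21, adjusted p = 0.022) and *Gclm* (-0.51 ± 0.09, adjusted p = 0.00073), both lower with IL-4. DESeq2 also called 0. Without HC3 M[IL-4] replicate 2, the highest *Slc7a11* library of its group, *Slc7a11* was called (-1.04, adjusted p = 0.0029). With RSM, 1 of 8 was called (4.26% of all genes, 1.81% lower), since *Slc7a11* fell by 1.59 on the log2 scale (SE 0.21, adjusted p = 1.97e-05), from 177 ± 20.3 CPM in M[0] to 58.9 ± 4.86 CPM in M[IL-4]. *Gclm* was lower there as well, at 560.0 ± 44.9 against 308.9 ± 20.98 CPM, without overlap and under the fold threshold (-0.86 ± 0.09, adjusted p = 1.65e-06).

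**Figure D4:**
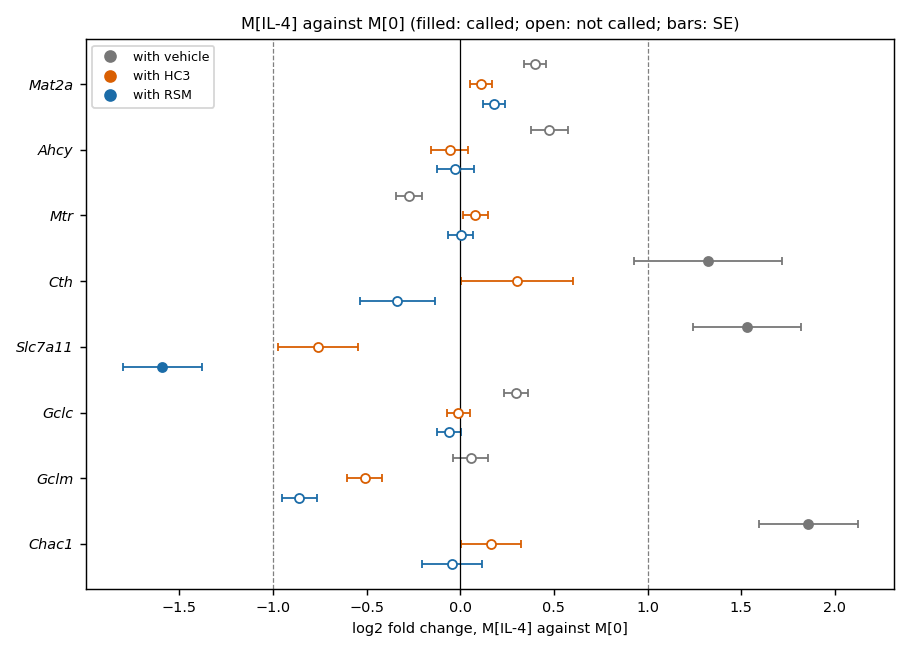
Log2 fold change of M[IL-4] against M[0] for each tested gene with vehicle, HC3 and RSM (points, filled where called), with SE (bars) and the fold threshold (dashed lines). *Slc7a11* is 1.53 higher with vehicle and 1.59 lower with RSM, and *Chac1* is called with vehicle and not with HC3 or RSM.

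Whether the polarizations responded differently to an inhibitor was tested as an interaction in the same fit. For HC3, 2 of 8 members were called (1.24% of all genes, 0.761% lower), and both had a smaller rise in M[IL-4]. The log2 difference of the rises was -2.29 ± 0.36 for *Slc7a11* (adjusted p = 0.00066) and -1.69 ± 0.31 for *Chac1* (adjusted p = 0.0024). For RSM, 3 of 8 were called (2.14% of all genes, 0.921% lower), *Slc7a11* at -3.12 ± 0.36 (adjusted p = 1.71e-05), *Chac1* at -1.90 ± 0.31 (adjusted p = 0.00053) and *Cth* at -1.66 ± 0.44 (adjusted p = 0.023). *Gclm* had interactions of -0.56 ± 0.13 (adjusted p = 0.014) and -0.91 ± 0.13 (adjusted p = 0.00017) that did not reach the fold threshold, and without Veh M[IL-4] replicate 2 the second was called. *Ahcy* (-0.53 for HC3 and -0.50 for RSM, adjusted p = 0.028 and 0.030) and *Gclc* (-0.31 and -0.36, adjusted p = 0.044 and 0.015) also stayed under it. So did *Mat2a* (-0.29, adjusted p = 0.045) and *Mtr* (0.35, adjusted p = 0.032) for HC3. For RSM the adjusted p was 0.12 for *Mat2a* and 0.080 for *Mtr*. Without replicate 3 in all groups the calls for *Slc7a11* (HC3, adjusted p = 0.060) and *Chac1* (0.18 for HC3 and 0.094 for RSM) were lost, and that for *Slc7a11* with RSM was kept. The call for *Cth* was lost without Veh M[0] replicate 2 (adjusted p = 0.082), without the count filter (0.064) and without any replicate number (0.15, 0.16 and 0.15).

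The inhibitors were also compared directly. In M[0], 2 of 8 members were called between HC3 and RSM (3.04% of all genes, 1.44% lower), both lower with HC3, *Cth* by log2 -3.24 ± 0.25 (9.46-fold lower, adjusted p = 4.73e-08) and *Slc7a11* by -1.26 ± 0.21 (2.40-fold lower, adjusted p = 0.00035). In M[IL-4], 1 of 8 was called (2.80% of all genes, 1.59% lower), *Cth* at -2.61 ± 0.24 (6.09-fold lower, adjusted p = 4.96e-07). The difference of *Slc7a11* there was -0.43 ± 0.21 (95% interval -0.89 to 0.02, adjusted p = 0.22), and the groups overlapped. With a replicate block its adjusted p was 0.0048, at log2 -0.47, still under the fold threshold. *Gclc* was higher with HC3 in both, by 0.45 ± 0.06 (adjusted p = 5.96e-05) and 0.50 ± 0.06 (adjusted p = 1.87e-05), and *Gclm* in M[IL-4], by 0.48 ± 0.09 (adjusted p = 0.0015), all under the fold threshold. For *Chac1* the 95% interval was -0.37 to 0.29 in M[0] and -0.17 to 0.50 in M[IL-4]. HC3 and RSM were each given at 1 dose, so that doses of equal strength were not compared.

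The other genes of these routes were taken from 7 lists, and none of their changes was read against a list test. Of 13 tested genes of the methionine cycle and salvage (of 17 listed), 1, 2, 0 and 1 were called higher and none lower, in the order HC3 M[0], RSM M[0], HC3 M[IL-4] and RSM M[IL-4] that is kept for the lists that follow. Medians of the list were 0.31, 0.20, 0.24 and 0.18. *Ahcyl1*, a relative of *Ahcy*, had 166 ± 14.4 CPM in Veh M[0] and rose in HC3 M[0] (383 ± 26.1 CPM) and RSM M[0] (346 ± 21.3 CPM). *Nnmt*, which spends S-adenosylmethionine to methylate nicotinamide, rose under RSM, by log2 1.23 in M[0] and 1.07 after IL-4. Of 10 tested genes of transsulfuration and cysteine breakdown (of 12), 1, 1, 0 and 1 were called higher and none lower, with medians of 0.30, 0.10, -0.04 and 0.08. These were the mitochondrial sulfur enzymes *Tst* (log2 1.50 in HC3 M[0] and 1.52 in RSM M[0], from 1.32 CPM in Veh M[0]) and *Sqor* (1.12 with RSM in M[IL-4]).

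Among 9 tested transporters of cystine, cysteine and glutamate (of 13), 3 were called higher in each comparison and none lower, with medians of 0.63, 0.32, 0.44 and 0.44. *Slc3a2*, the heavy chain that pairs with xCT and with other light chains, rose from 341 ± 32.1 CPM in Veh M[0] to 934 ± 52.9 with HC3 and 785 ± 39.2 with RSM, and from 360 ± 25.9 to 934 ± 58.4 and 771 ± 32.6 in M[IL-4]. *Slc7a5*, a light chain for large neutral amino acids, rose by log2 2.64, 3.02, 1.77 and 1.81. *Slc1a4*, a carrier of alanine, serine and cysteine, rose by 2.65, 2.56, 1.86 and 1.85. The partner of xCT thus rose less than *Slc7a11* in M[0], at 1.45 against 3.95 with HC3 and 1.20 against 5.22 with RSM.

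Of 13 tested genes of glutathione synthesis and the gamma-glutamyl cycle (of 15), none was called higher and 1 lower in each comparison, with medians of 0.22, 0.05, -0.00 and 0.02. The gene was *Ggt5*, a gamma-glutamyltransferase, at log2 -1.23, -1.85, -1.59 and -1.66 from 1.28 CPM in Veh M[0] and 2.13 CPM in Veh M[IL-4]. *Gss*, which completes glutathione and was chosen for mention after its values were seen, had 0.42, 0.30, 0.38 and 0.15 and was not called. Its adjusted p was 0.0040, 0.035, 0.011 and 0.32. Of 30 tested genes that use glutathione (of 34), 3, 4, 2 and 3 were called higher and 3, 4, 1 and 2 lower, with medians of 0.25, 0.14, 0.11 and 0.09. *Gsta3*, a glutathione S-transferase of the alpha family, rose from 1.28 ± 0.422 CPM in Veh M[0] to 28.1 ± 2.03 with HC3 and 18.02 ± 1.59 with RSM, and from 0.611 ± 0.177 to 13.6 ± 0.613 and 5.18 ± 1.13 in M[IL-4], although reads may be shared within this gene family. *Gsto1*, an omega-class transferase, rose by 1.82, 1.33, 1.68 and 1.29, whereas *Glrx*, a glutaredoxin, fell by 1.55, 1.31 and 1.29 in the first 3 comparisons and had -0.75 in the fourth.

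The 21 NRF2-associated genes outside the members (*Nfe2l2* included) had 3, 2, 0 and 0 called higher and 0, 0, 0 and 1 lower, with medians of 0.33, 0.31, -0.05 and -0.28. *Srxn1*, a sulfiredoxin, rose by log2 1.46 and 1.15 in M[0] and had 0.83 and 0.28 in M[IL-4]. *Nqo1*, a quinone reductase, rose with RSM in M[0] (1.66), and *Me1*, malic enzyme, with HC3 in M[0] (1.22). The gene called lower was *G6pdx*, which supplies NADPH for the reduction of glutathione, at -1.21 with RSM in M[IL-4]. It was also lower, under the fold threshold, in the first 3 comparisons, at -0.68, -0.85 and -0.74. *Nfe2l2*, which encodes NRF2 and was chosen for mention after its values were seen, was lower in each comparison but under the fold threshold. Its log2 differences were -0.61, -0.39, -0.56 and -0.53 (adjusted p = 2.26e-05, 0.0017, 6.96e-05 and 0.00013). The 20 genes of the ATF4 pathway outside the members (*Atf4* included) had 10, 14, 8 and 11 called higher and none lower, with medians of 1.11, 1.73, 0.77 and 1.09. *Trib3*, a pseudokinase that ATF4 and CHOP induce, rose by log2 6.57, 6.49, 5.50 and 5.56, *Ddit3*, which encodes CHOP, by log2 3.33, 2.99, 2.88 and 2.47 and *Atf5*, a related factor, by 2.78, 3.27, 1.89 and 2.36. *Atf4* itself, chosen for mention after its values were seen, rose by 1.77, 1.74, 1.21 and 1.12. IL-4 raised 5 of the 20 in vehicle (*Trib3*, *Atf5*, *Asns*, *Psat1* and *Phgdh*), where 2.83% of all tested genes were called higher. None of the 20 was called for IL-4 with HC3 or RSM, where 3.97% and 4.26% of all tested genes were called in either direction.

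**Figure D5:**
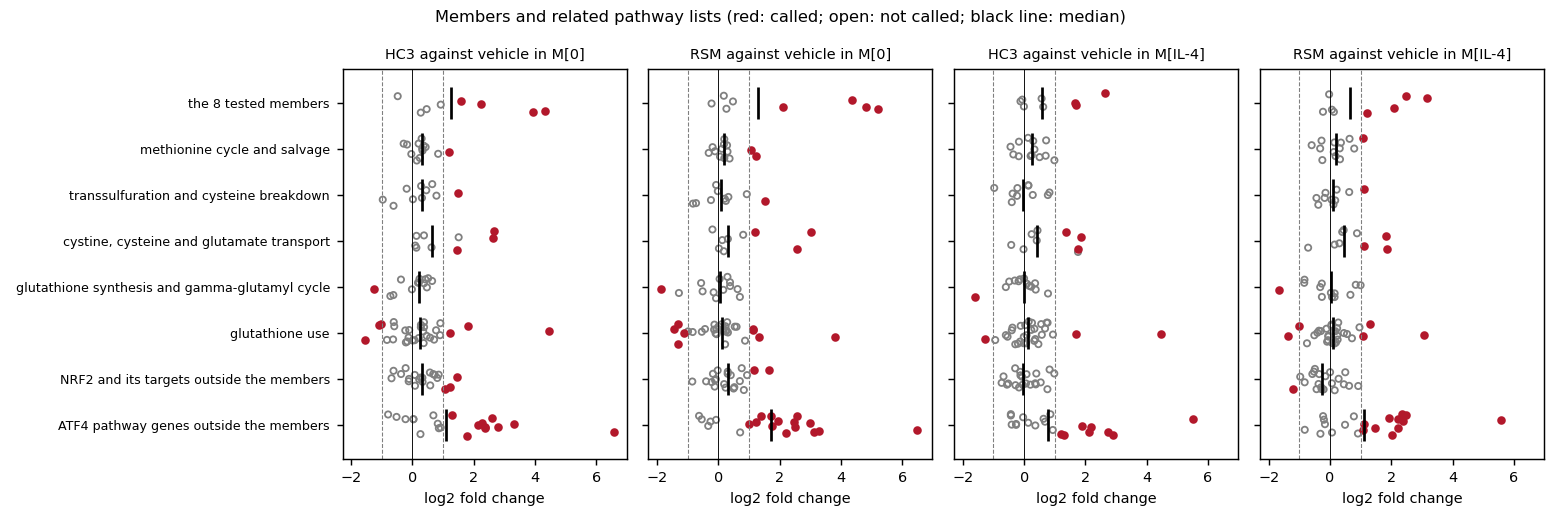
Log2 fold changes of the 8 tested members (top row) and every tested gene of the 7 lists (points, red and filled where called) in the 4 comparisons of an inhibitor with vehicle, with the list median (line) and the fold threshold (dashed). Medians of the ATF4 list lie between 0.77 and 1.73 and those of the glutathione synthesis list between -0.00 and 0.22.

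For each member, the 2 genes most like it over the 6 group means were found among 10966 genes averaging 50 counts or more, by the root mean square difference of their centred log2 levels. *Gclm* lay closest to *Sqstm1* (0.21) and *Zfp503* (0.22), where the median over all candidates was 0.92. *Chac1* lay closest to *Ptgir* (0.34) and *Ddit3* (0.43, median 1.67), *Slc7a11* to *Chchd10* (0.46) and *Pcdhac2* (0.59, median 1.69), and *Cth* to *Aldh1l2* (0.49) and *Bst1* (0.65, median 1.59). The nearest genes of the members that varied little were *Mydgf* and *Vdac1* for *Mat2a*, *Mrpl54* and *Aimp2* for *Ahcy*, *Rap1b* and *Hook3* for *Mtr*, and *Sac3d1* and *Maz* for *Gclc*, at 0.02 to 0.06, which such flat patterns reach more easily. These are descriptions over 6 means, without a test.

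Ordered by their means, the groups ran from Veh M[0] to RSM M[0] for *Slc7a11*, where HC3 M[IL-4], RSM M[IL-4] and HC3 M[0] overlapped as neighbours in between. For *Cth* the RSM groups were highest, and for *Gclm* HC3 M[0] and RSM M[0] overlapped at the top and the vehicle groups at the bottom. For *Chac1* the 4 inhibitor groups could not be ordered, since each overlapped with its neighbour. *Gclc* was highest in the HC3 groups, which overlapped, and *Mtr* lowest in them, while every neighbour in the order of *Ahcy* overlapped.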

How the data were processed

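The authors used fastp for trimming and STAR in local mode for alignment to GRCm38. Pairs of mapping quality 40 went on, duplicates found by Picard were retained, and featureCounts assigned pairs to exons. The deposited values are raw counts per Ensembl gene in 18 libraries. Versions, annotation release and strand setting are not given in the sources used here, and duplicates or unresolved overlaps may affect single genes. Symbols, positions and exon lengths came from GENCODE M21 (Ensembl 96) and matched 55144 of 55385 genes.

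The 14979 genes reaching 10 counts in 2 or more libraries entered edgeR 4.0.16 under R 4.3.3 (TMM scaling, then glmQLFit and glmQLFTest), in 1 fit with a coefficient per group and 11 contrasts. Adjusted p-values are Benjamini-Hochberg values over all tested genes, and SE is the log2 fold change over the root of F. Depth was 17457796 to 19522255 counts per library, and the floors of 3 counts cover counting error only. The 95% intervals use this SE and the degrees of freedom of the fit, so that they hold the spread between libraries. Members and lists were chosen with earlier results of these data known. Named are the members, up to 3 called genes per pathway list with the largest mean absolute change, and 2 nearest genes per member. Further genes were picked with their values already known.

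Same-numbered libraries of a polarization deviated together (correlation of residuals 0.110 to 0.372, above 0.1 in 18 of 18 pairs; across polarizations in 12 of 27), so the numbers pair libraries within a polarization, although the labels do not say what they mark. Replicates differed beyond counting error (chi-square of 6.30 to 20.3 per gene). Alternatives were replicate blocks, only the groups compared, DESeq2 1.42.0, other count filters, library size scaling and leaving out each library or replicate number. Near-identical transcripts were found with blastn 2.17.0, and promoters came from RefSeq (GRCm38.p6). The steps were tested on simulated data for HC3 against vehicle in M[0], with 200 of 14979 genes changed 4-fold. The changed genes were drawn from those averaging 50 counts or more. Both edgeR and DESeq2 recovered all 200, with 2 and 3 false calls. The simulation held no correlation between same-numbered libraries. It did not test genes of low counts such as *Cth*, or smaller changes. Figures were drawn with matplotlib 3.10.9.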

Additional observations from a re-analysis of the deposited data

Results flagged for a closer look

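A test of the difference between polarizations, the interaction of inhibitor and IL-4 in the edgeR fit, passed both thresholds for 3 members. *Ahcy*, *Gclc* and *Gclm* with both inhibitors, and *Mat2a* and *Mtr* with HC3, had adjusted p under 0.05 without reaching the fold threshold. The rise with HC3 was smaller in M[IL-4] than in M[0] for *Slc7a11* (log2 difference of the rises -2.29) and *Chac1* (-1.69). The rise with RSM was smaller in M[IL-4] for *Slc7a11* (-3.12), *Chac1* (-1.90) and *Cth* (-1.66). Vehicle levels of *Slc7a11*, *Chac1* and *Cth* were higher in M[IL-4] than in M[0], and the same vehicle libraries enter the tests of both inhibitors.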

How the results depend on the processing

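The 8 tested members kept their direction and their side of the threshold in 2406 values over 28 alternatives and 11 comparisons, while 14 calls were lost, 2 gained and 41 values changed sign. None of the values that changed sign was called, with adjusted p of at least 0.40. Neither replicate block changed the call of a member, although adjusted p-values fell under 0.05 for further values of *Mat2a*, *Ahcy*, *Mtr* and *Slc7a11* below the fold threshold; the all-gene count for the interaction of HC3 became 288 in place of 186 with the block within each polarization. In the compared groups alone, *Cth* did not pass the count filter for IL-4 with vehicle.

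Leaving out a library or replicate number moved the number of members called from 0 to 1 for IL-4 with HC3, to between 0 and 2 (2 in the fit of all libraries) for the interaction of HC3, and to between 1 and 4 (3) for that of RSM. Without replicate 3, all-gene calls were 344 (of 594) and 419 (of 638) for IL-4 with HC3 and RSM, 257 (of 456) and 218 (of 419) for HC3 against RSM in M[0] and M[IL-4], and 41 (of 186) and 131 (of 321) for the interactions of HC3 and RSM. Without replicate 1 the interaction of HC3 gave 116. The share of higher calls for IL-4 with HC3 was 57.5% without replicate 1 and 58.4% without replicate 3, against 46.0%. The cause was not tested.

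Values that changed sign outside the leave-outs were *Mat2a* with HC3 in M[IL-4] (0.0072 in only the groups compared, 0.043 by library size) and with RSM (0.019 by library size), *Mtr* for IL-4 with RSM (-0.0019 in only the groups compared, -0.0085 by DESeq2, -0.059 by library size) and *Gclc* for IL-4 with HC3 (0.014 without a count filter). Leave-outs ranged from -0.037 to 0.037 and from -0.060 to 0.013 for *Mat2a* with HC3 and RSM in M[IL-4], from -0.12 to 0.061 for *Ahcy*, -0.041 to 0.052 for *Mtr* and -0.24 to 0.10 for *Chac1* for IL-4 with RSM, from -0.064 to 0.040 for *Gclc* for IL-4 with HC3, from -0.10 to 0.14 for *Gclm* for IL-4 with vehicle and from -0.15 to 0.062 for *Chac1* for HC3 against RSM in M[0]. Depth limits *Cbs* and, in vehicle, *Cth*.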
